A study of Mus musculus with 8 samples.

Results

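The data of 10 genes of the YAP and TEAD pathway are described across all 4 groups of a study on ASZ001, a cell line from a mouse basal cell carcinoma. They were taken by symbol from the deposited table of estimated counts per gene, and make up 10 of its 24907 symbols. They are the coactivators Yap1 and Wwtr1, the DNA-binding partner Tead1, the kinase Lats2, the LIM protein Ajuba, the angiomotin-like genes Amotl1 and Amotl2, and the target genes Ctgf, Cyr61 and Ankrd1. Of these, 9 had enough counts to be tested. Ankrd1 was left out by the filter on low counts and is given by its counts.

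The cells had been transfected with a Tgfbr1 shRNA (knockdown cells), which targets a TGF-beta receptor of type I, or with a non-silencing one (NS cells). Each was treated with Dox-4OHT or with DMSO, and the libraries with Dox-4OHT carry the label RasV12, an activated form of Ras. The 4 groups, with 2 libraries each, are called knockdown Ras cells (Tgfbr1 shRNA, Dox-4OHT), NS Ras cells (non-silencing shRNA, Dox-4OHT), knockdown DMSO cells (Tgfbr1 shRNA, DMSO) and NS DMSO cells (non-silencing shRNA, DMSO). No group has Dox-4OHT without the RasV12 label or that label without Dox-4OHT. The drugs and Ras therefore cannot be told apart, and "Ras response" stands for both. Not given in the sources used here are doses, times, the promoter of the RasV12 construct, the number of shRNA sequences and whether the cells were clones. Whether replicate libraries are from separate cultures is not stated, so p-values here reflect the spread between these libraries only, and that spread could be technical.

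As background, YAP (Yap1) and its paralog TAZ (Wwtr1) do not bind DNA themselves. They act in the nucleus through TEAD transcription factors, and the kinases of the Hippo pathway, MST and then LATS, phosphorylate them and hold them in the cytoplasm. Angiomotins bind YAP at junctions, and Ajuba family LIM proteins bind LATS kinases and restrain them. Ctgf, Cyr61, Ankrd1, Amotl1, Amotl2, Lats2 and Ajuba are themselves known target genes, and Lats2 and the angiomotins act back on YAP. YAP and TAZ promote proliferation of basal keratinocytes and are known for their part in skin carcinomas. Their activity is set largely by protein location and phosphorylation, which messenger RNA levels do not measure. Ctgf is also a classical target of TGF-beta and SMAD signalling, and Tgfbr1 is the receptor that was knocked down here.

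TEAD factors recognise the sequence GGAATG, which reads CATTCC on the opposite strand. Promoter windows (250 bases before a transcript start and 50 from it, RefSeq, GRCm38.p6) were found for 8 of the 10 members. Of these 8, 7 held the motif on either strand, as did 8 of their 10 windows. Over all promoter windows of the same length, 14.7% held it (4811 of 32817), and of all genes with a window 4475 of 26994 did. The members were listed as pathway genes and known targets, so these shares are a description and no test. Cyr61, Amotl2, Ajuba and Ankrd1 are shown because the first 3 changed with Ras or with the knockdown, and Ankrd1 holds 2 matches. Printed are the 250 bases before the start on the gene's strand, with the motif in capitals.
Cyr61 (chr3:145649986-145650235, minus strand): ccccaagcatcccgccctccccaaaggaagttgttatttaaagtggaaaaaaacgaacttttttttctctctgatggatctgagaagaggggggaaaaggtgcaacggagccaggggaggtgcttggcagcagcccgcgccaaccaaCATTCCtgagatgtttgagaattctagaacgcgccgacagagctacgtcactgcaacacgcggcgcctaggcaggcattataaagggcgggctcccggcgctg
Amotl2 (chr9:102717554-102717803, plus strand): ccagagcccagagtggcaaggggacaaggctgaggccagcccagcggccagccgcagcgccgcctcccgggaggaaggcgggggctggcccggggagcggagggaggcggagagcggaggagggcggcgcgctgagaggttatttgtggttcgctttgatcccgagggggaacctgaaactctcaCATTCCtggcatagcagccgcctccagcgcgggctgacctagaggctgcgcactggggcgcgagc
Ajuba (chr14:54577662-54577911, minus strand): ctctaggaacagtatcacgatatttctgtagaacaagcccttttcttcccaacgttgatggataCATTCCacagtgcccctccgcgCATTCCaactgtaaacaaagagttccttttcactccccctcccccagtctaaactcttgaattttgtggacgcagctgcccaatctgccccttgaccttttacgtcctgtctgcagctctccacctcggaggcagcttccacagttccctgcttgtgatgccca
Ankrd1 (chr19:36119845-36120094, minus strand): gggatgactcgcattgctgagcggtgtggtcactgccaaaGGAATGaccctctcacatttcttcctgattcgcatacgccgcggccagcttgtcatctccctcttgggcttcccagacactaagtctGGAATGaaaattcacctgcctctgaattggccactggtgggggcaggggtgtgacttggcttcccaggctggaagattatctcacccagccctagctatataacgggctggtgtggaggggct
The match in Cyr61 began 103 bases before the start and that in Amotl2 65 bases before it. Ajuba had 2 matches, beginning 186 and 164 bases before the start, and Ankrd1 had 2, beginning 210 and 123 bases before it. Yap1 had 1 match, beginning 141 bases before the start. Of the Wwtr1 windows, which overlap, both held the same match. The match in Lats2 lay after the start, at bases 4 to 9, and the Amotl1 window held none. The AP-1 motif TGANTCA, which reads the same on both strands, was in 0 of the 8 members with a window. It was in 7.81% of all windows and in 2424 of 26994 genes, so 0 of 8 says little. A match describes the letters of a window and is not a measured binding site.

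Library totals ran between 12724604.5 and 16233379 counts. The ribosomal entry Rn45s took 0.388% to 2.76% of them. Tgfbr1 stood at 8.86 and 9.42 CPM (counts scaled by library size, with factors from the trimmed mean of M-values) in knockdown Ras cells, against 104 and 91.6 CPM in NS Ras cells. It was 10.2 and 8.08 CPM in knockdown DMSO cells, against 77.1 and 80.4 CPM in NS DMSO cells, so its level went with the shRNA label in all 8 libraries. All 5 basal keratinocyte markers (Krt5, Krt14, Trp63, Itga6 and Itgb4) were detected, and their summed level was 11001.9 to 11473.2 CPM in knockdown Ras cells, 11838.3 to 12043.9 in NS Ras cells, 15039.3 to 15770.9 in knockdown DMSO cells and 24312.5 to 24614.7 in NS DMSO cells. The 6 fibroblast markers summed to at most 4.39 CPM in any library, with Col3a1 and Lum at 0 throughout. The 6 markers of immune, endothelial and pigment cells summed to 46.9 to 47.6 CPM in knockdown Ras cells, 29.8 to 31.6 in NS Ras cells, 30.6 to 32.7 in knockdown DMSO cells and 44.1 to 46.0 in NS DMSO cells, with Dct at 0 throughout. That sum was nearly all Pecam1 (group means 23.1 to 36.7 CPM) and Cd68 (4.70 to 15.2 CPM), and the rest were at or near 0. Cd68 rose with Ras in knockdown cells (log2 1.69), past the test. The basal keratinocyte sum was carried by Krt5 and Krt14, and the other basal markers did not all follow it. Trp63 rose with Ras in NS cells (log2 0.23) and with the knockdown under DMSO (0.26), and Itga6 rose with the knockdown under Dox-4OHT (0.68) and under DMSO (0.55), all past the test. The part of these markers in the changes of the members was not tested. In bulk RNA a smaller number of cells of a type and less RNA per cell cannot be told apart.

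The members did not move as a block. In knockdown cells the Ras response raised 3 of the 9 tested members (Cyr61, Amotl1 and Wwtr1) and lowered 3 (Amotl2, Ajuba and Ctgf), by edgeR's quasi-likelihood test at a Benjamini-Hochberg adjusted p of 0.05. Of all 12538 genes tested, 36.1% were called in this comparison, 19.5% higher and 16.6% lower. In NS cells the Ras response raised 4 members (Tead1, Wwtr1, Amotl1 and Ctgf) and lowered 2 (Amotl2 and Ajuba), where 42.1% of all genes were called, 20.8% higher and 21.3% lower. The median log2 change of the 9 members was -0.09 in knockdown cells and 0.14 in NS cells, and that of all genes was 0.00 in each.

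Knockdown of Tgfbr1 under Dox-4OHT raised 3 members (Cyr61, Yap1 and Wwtr1), and the other 6 did not pass the test. Of all genes, 60.2% were called there, 30.5% higher and 29.7% lower. Under DMSO the knockdown raised 5 members (Tead1, Cyr61, Ctgf, Yap1 and Wwtr1) and lowered 2 (Amotl2 and Amotl1), where 61.9% of all genes were called, 30.9% higher and 31% lower. The median log2 change of the members was 0.03 under Dox-4OHT and 0.11 under DMSO, and that of all genes was -0.01 under Dox-4OHT and 0.00 under DMSO. The share of the 9 members called was above the share of all genes in both Ras responses and in the knockdown under DMSO, and below it in the knockdown under Dox-4OHT, which is a description with no test of the members as a set. The Ras response differed between knockdown and NS cells for 4 members (interaction test), with Amotl2 and Amotl1 positive and Ctgf and Tead1 negative, and 38.2% of all genes were called for this difference, 20.2% positive and 18% negative. The comparisons share libraries, so their values are given side by side and not as independent of each other.

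**Figure D1:**
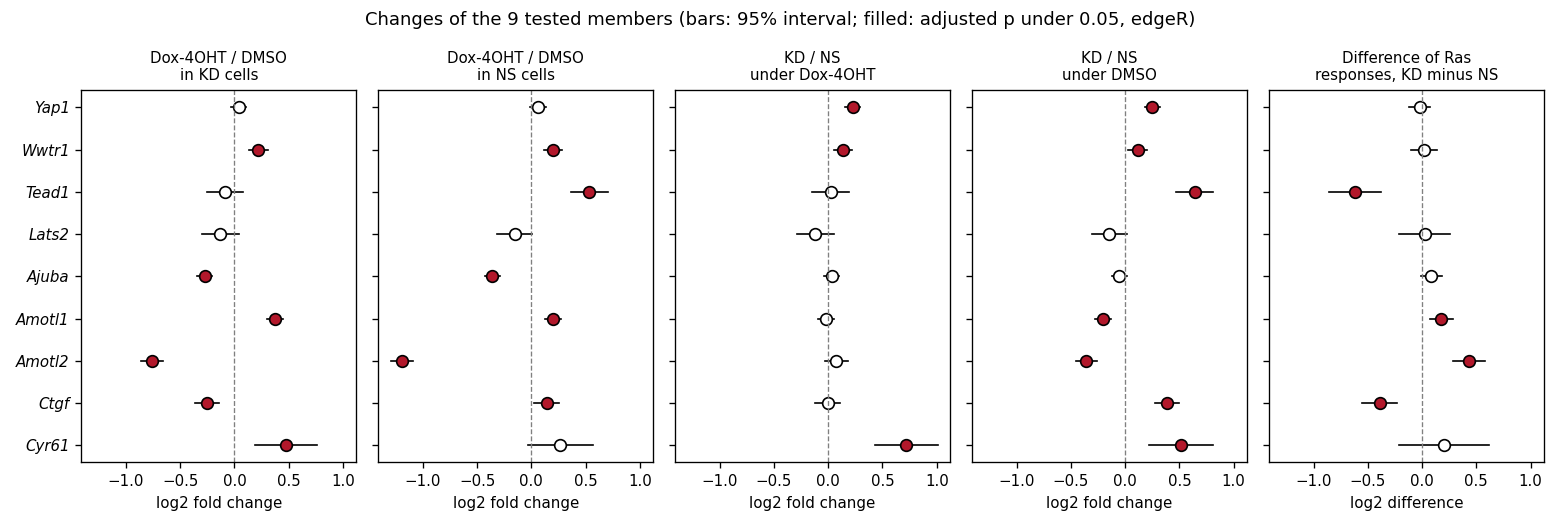
Log2 change of each tested member in the 5 comparisons, with 95% intervals from the edgeR fit over all 8 libraries; filled points passed an adjusted p of 0.05. Amotl2 lay farthest below 0 in NS cells under Ras (-1.19), and Cyr61 lay above 0 in both knockdown comparisons (0.72 under Dox-4OHT and 0.52 under DMSO).

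The coactivators were abundant and moved little. Yap1 stood at 347 and 341 CPM in knockdown Ras cells, 298 and 290.3 CPM in NS Ras cells, 341 and 330.4 CPM in knockdown DMSO cells, and 284 and 281 CPM in NS DMSO cells. All 4 knockdown libraries lay above all 4 NS libraries. Yap1 rose with the knockdown by 1.17-fold under Dox-4OHT (log2 0.23 ± 0.03, SE; adjusted p = 2.33e-06, edgeR) and by 1.19-fold under DMSO (0.25 ± 0.03; adjusted p = 5.04e-07, edgeR). With Ras its log2 change was 0.04 (95% interval -0.03 to 0.11) in knockdown cells and 0.06 (-0.01 to 0.13) in NS cells, and neither passed the test.

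Wwtr1, which encodes TAZ, was the member raised in all 4 comparisons. It stood at 179.7 and 183 CPM in knockdown Ras cells, 169.7 and 160.4 CPM in NS Ras cells, 152 and 159 CPM in knockdown DMSO cells, and 143 and 145 CPM in NS DMSO cells. The pairs of libraries did not overlap in any of the 4 comparisons. It rose with Ras by 1.17-fold in knockdown cells (log2 0.22 ± 0.04; adjusted p = 0.000108, edgeR) and by 1.15-fold in NS cells (0.20 ± 0.04; adjusted p = 0.000305, edgeR). The knockdown effects were smaller, 1.10-fold under Dox-4OHT (adjusted p = 0.00551, edgeR) and 1.08-fold under DMSO (adjusted p = 0.0188, edgeR). The call under Dox-4OHT was lost without NS Ras replicate 2 (adjusted p = 0.123). The call under DMSO was lost by DESeq2 (0.109) and without NS DMSO replicate 1 (0.115), NS DMSO replicate 2 (0.0524) or knockdown DMSO replicate 2 (0.172). In TPM (transcript shares corrected for gene length), Yap1 was 2.20 and 2.12 times Wwtr1 in knockdown Ras cells, 2.003 and 2.06 times in NS Ras cells, 2.55 and 2.37 times in knockdown DMSO cells, and 2.27 and 2.21 times in NS DMSO cells. Yap1 thus made up 66.7% to 71.8% of the summed level of both coactivators in every library. That sum was 328 and 327 TPM in knockdown Ras cells, 299.8 and 283 TPM in NS Ras cells, 314 and 310.05 TPM in knockdown DMSO cells, and 263 and 262 TPM in NS DMSO cells.

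**Figure D2:**
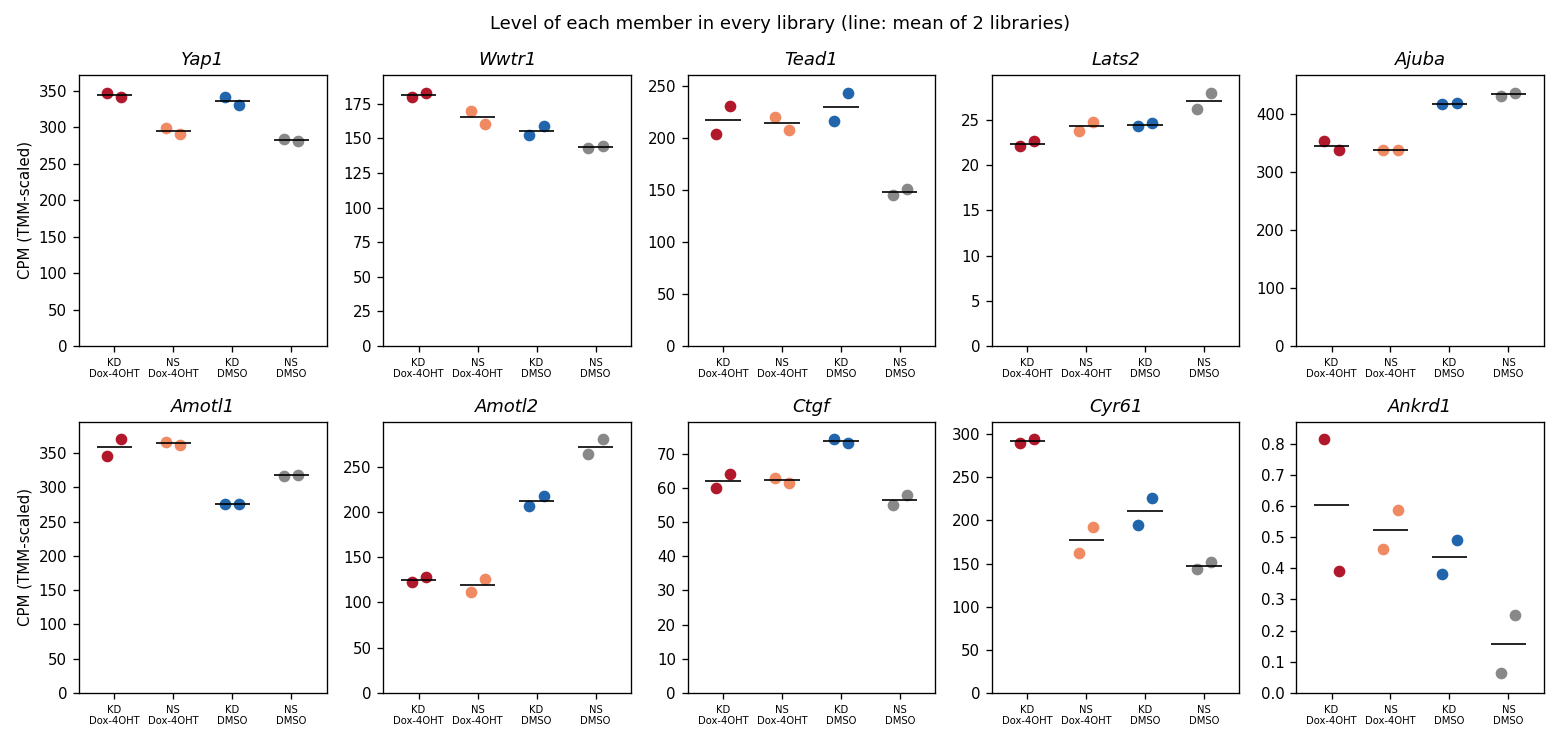
Level of each of the 10 members in the 8 libraries, in CPM on an axis of its own for each gene, with 1 point per library and a bar at the mean of each group. Yap1 was higher in all 4 knockdown libraries, Tead1 was low in NS DMSO cells alone (145 and 151 CPM), and Amotl2 was low in both Ras groups (112 to 128 CPM).

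Tead1, a DNA-binding partner of the coactivators, had 1 group that stood apart. It was at 204 and 231 CPM in knockdown Ras cells, 221 and 208 CPM in NS Ras cells, 217 and 244 CPM in knockdown DMSO cells, and 145 and 151 CPM in NS DMSO cells. The first 3 groups overlapped one another, and the NS DMSO libraries lay below all of them. Tead1 rose 1.45-fold with Ras in NS cells (log2 0.53 ± 0.07; adjusted p = 0.000482, edgeR) and 1.56-fold with the knockdown under DMSO (0.64 ± 0.07; adjusted p = 7.69e-05, edgeR). Changes of larger size were seen in 14.3% of all genes for the first comparison and 20.7% for the second. In knockdown cells the Ras response was -0.09 (95% interval -0.25 to 0.08), and under Dox-4OHT the knockdown effect was 0.02 (-0.15 to 0.19). The Ras responses differed by -0.62 ± 0.10 on the log2 scale (knockdown minus NS cells; adjusted p = 0.00168, edgeR). Without knockdown Ras replicate 2 the Ras response of Tead1 in knockdown cells passed the test as a fall of -0.17 (adjusted p = 0.0391).

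The other TEAD genes moved in opposite directions with the knockdown. Tead2 was at 45.5 and 44.4 CPM in knockdown Ras cells, against 94.4 and 100.2 CPM in NS Ras cells, and at 43.8 and 38.4 CPM in knockdown DMSO cells, against 78.8 and 76.8 CPM in NS DMSO cells. Tead3 was at 88.2 and 80.9 CPM in knockdown Ras cells, against 46.4 and 49.0 CPM in NS Ras cells, and at 74.1 and 74.5 CPM in knockdown DMSO cells, against 44.9 and 47.4 CPM in NS DMSO cells. Tead2 fell with the knockdown under Dox-4OHT (log2 -1.11 ± 0.06; adjusted p = 4.62e-15, edgeR) and under DMSO (-0.92 ± 0.06; adjusted p = 4.58e-13, edgeR), while Tead3 rose (0.83 ± 0.06, adjusted p = 1.78e-12, and 0.69 ± 0.06, adjusted p = 8.41e-11, edgeR). Tead4 rose under Dox-4OHT (0.19 ± 0.06; adjusted p = 0.00683, edgeR; 0.0593 by DESeq2) and fell under DMSO (-0.23 ± 0.06; adjusted p = 0.000751, edgeR).

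The makeup of the family differed more between the shRNAs than its sum did. The 4 TEAD genes summed to 254 and 254 TPM in knockdown Ras cells, 279 and 280.2 TPM in NS Ras cells, 241 and 242 TPM in knockdown DMSO cells, and 236 and 239 TPM in NS DMSO cells. Tead2 gave 22.7% and 22.2% of that sum in knockdown Ras cells, 44.1% and 45.6% in NS Ras cells, 23.3% and 20.3% in knockdown DMSO cells, and 41.6% and 40.04% in NS DMSO cells. Tead3 gave 36.2% and 33.3% in knockdown Ras cells, 17.9% and 18.4% in NS Ras cells, 32.5% in each library of knockdown DMSO cells, and 19.5% and 20.4% in NS DMSO cells. Tead3 was thus the leading TEAD transcript per length in knockdown cells, and Tead2 in NS cells. The share of Tead1 was 21.9% and 24.9% in knockdown Ras cells, 22.2% and 20.4% in NS Ras cells, 24.9% and 27.8% in knockdown DMSO cells, and 16.5% and 16.9% in NS DMSO cells. Shares within a family are uncertain where reads of related genes could be divided between them.

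**Figure D3:**
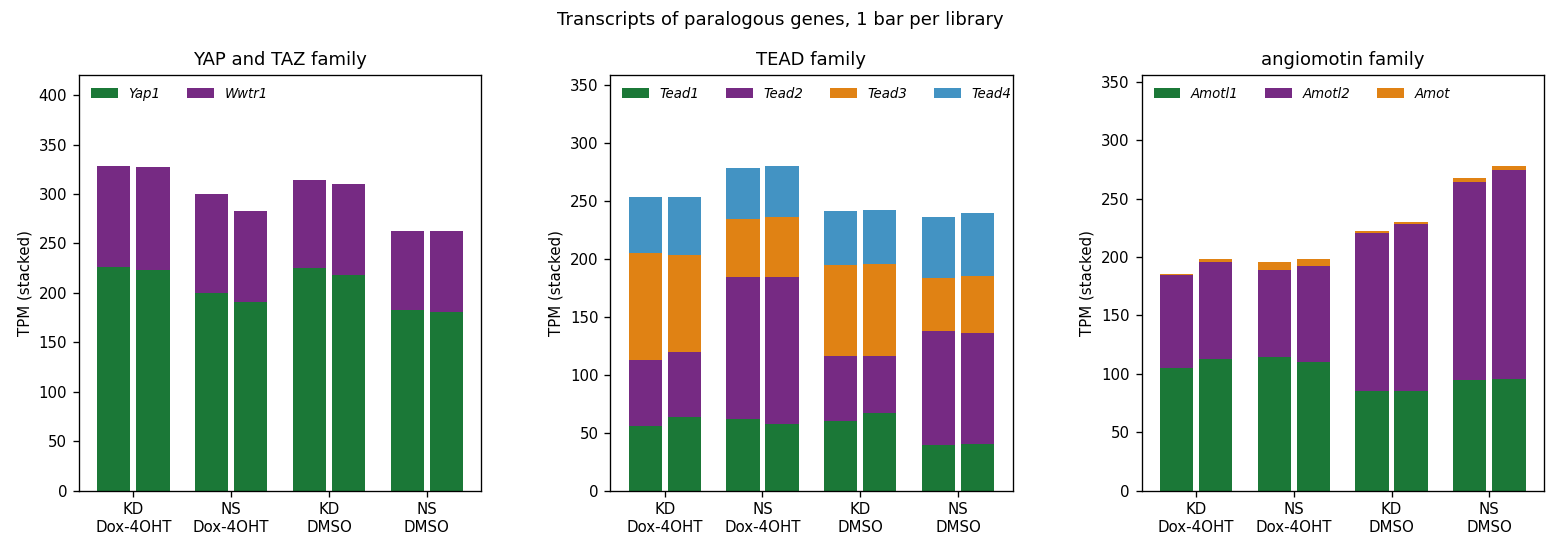
Levels per length (TPM) of the TEAD, angiomotin and coactivator genes in the 8 libraries, stacked by gene within each family. Tead2 made up 20.3% to 23.3% of the TEAD sum in knockdown libraries and 40.04% to 45.6% in NS libraries; Amotl2 made up at most 42.7% of the angiomotin sum in Ras libraries and at least 61.2% in DMSO libraries.

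The kinase gene Lats2, a target that acts back on YAP, was the least abundant of the tested members. Its level was 22.1 and 22.6 CPM in knockdown Ras cells, 23.8 and 24.8 CPM in NS Ras cells, 24.3 and 24.6 CPM in knockdown DMSO cells, and 26.2 and 28.0 CPM in NS DMSO cells. Libraries did not overlap in any of the 4 comparisons, and the differences were small. The log2 changes were -0.13 (95% interval -0.30 to 0.04) with Ras in knockdown cells, -0.16 (-0.32 to 0.01) with Ras in NS cells, -0.12 (-0.29 to 0.05) with the knockdown under Dox-4OHT and -0.15 (-0.31 to 0.01) with the knockdown under DMSO. The adjusted p lay between 0.107 and 0.242 (edgeR), above the threshold in each.

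Ajuba, whose product restrains LATS kinases, followed the treatment. It stood at 353 and 337 CPM in knockdown Ras cells, 337 and 338 CPM in NS Ras cells, 417 and 418 CPM in knockdown DMSO cells, and 429.9 and 436 CPM in NS DMSO cells. All 4 Ras libraries lay below all 4 DMSO libraries. Ajuba fell with Ras by 1.21-fold in knockdown cells (log2 -0.27 ± 0.03; adjusted p = 2.85e-07, edgeR) and by 1.28-fold in NS cells (-0.36 ± 0.03; adjusted p = 1.34e-09, edgeR). The knockdown effect was 0.03 (95% interval -0.04 to 0.10) under Dox-4OHT and -0.05 (-0.12 to 0.02) under DMSO.

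Both angiomotin-like genes responded to Ras, in opposite directions. Amotl2, a scaffold that binds YAP at junctions, was at 123 and 128 CPM in knockdown Ras cells, 112 and 126 CPM in NS Ras cells, 206 and 218 CPM in knockdown DMSO cells, and 264 and 280.2 CPM in NS DMSO cells. The Ras groups overlapped each other and lay below both DMSO groups, which did not overlap. Amotl2 fell with Ras by 1.70-fold in knockdown cells (log2 -0.76 ± 0.05; adjusted p = 4.91e-11, edgeR) and by 2.29-fold in NS cells (-1.19 ± 0.05; adjusted p = 7.63e-15, edgeR). Only 6.05% of all genes in knockdown cells and 3.85% in NS cells had a change of larger size. The Ras responses differed by 0.43 ± 0.07 (knockdown minus NS cells; adjusted p = 3.52e-05, edgeR). The knockdown lowered Amotl2 by 1.28-fold under DMSO (-0.36 ± 0.05; adjusted p = 6.41e-07, edgeR), and its effect under Dox-4OHT was 0.07 (95% interval -0.03 to 0.18). That last value passed the test, at 0.15, without NS Ras replicate 2 (adjusted p = 0.0226).

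Amotl1 was at 347 and 370.2 CPM in knockdown Ras cells, 367 and 361 CPM in NS Ras cells, 276 CPM in each library of knockdown DMSO cells, and 317 and 318 CPM in NS DMSO cells. The Ras groups overlapped each other and lay above both DMSO groups. Amotl1 rose with Ras by 1.30-fold in knockdown cells (log2 0.38 ± 0.04; adjusted p = 3.17e-09, edgeR) and by 1.15-fold in NS cells (0.20 ± 0.04; adjusted p = 5.26e-05, edgeR). These responses differed by 0.18 ± 0.05 (knockdown minus NS cells; adjusted p = 0.00632, edgeR), and it did not pass without knockdown Ras replicate 2 (0.076). With the knockdown Amotl1 fell by 1.15-fold under DMSO (-0.20 ± 0.04; adjusted p = 2.27e-05, edgeR), and its log2 change under Dox-4OHT was -0.02 (95% interval -0.10 to 0.05).

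The order of the 2 genes per length turned with the treatment. Amotl2 was 0.757 and 0.738 times Amotl1 in TPM in knockdown Ras cells and 0.652 and 0.743 times in NS Ras cells, but 1.60 and 1.69 times in knockdown DMSO cells and 1.78 and 1.88 times in NS DMSO cells. Amot, the founding member of the family, gave 0.812% and 1.20% of the angiomotin sum in knockdown Ras cells, 3.09% and 2.79% in NS Ras cells, 0.484% and 0.737% in knockdown DMSO cells, and 1.38% and 1.24% in NS DMSO cells. Amot fell with the knockdown under Dox-4OHT (log2 -1.56 ± 0.17; adjusted p = 1.71e-08, edgeR) and under DMSO (-1.39 ± 0.19; adjusted p = 1.21e-06, edgeR).

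Of the 3 target genes read most often as output of YAP and TEAD, each had a pattern of its own. Cyr61, a secreted matricellular protein, was at 290.2 and 294 CPM in knockdown Ras cells, 162 and 193 CPM in NS Ras cells, 194 and 226 CPM in knockdown DMSO cells, and 143 and 152 CPM in NS DMSO cells. Knockdown Ras cells lay above every other library, and NS DMSO cells below every other. Cyr61 rose with the knockdown by 1.65-fold under Dox-4OHT (log2 0.72 ± 0.11; adjusted p = 0.0036, edgeR) and by 1.43-fold under DMSO (0.52 ± 0.11; adjusted p = 0.0134, edgeR). It rose 1.39-fold with Ras in knockdown cells (0.47 ± 0.11; adjusted p = 0.0272, edgeR). In NS cells the Ras response was 0.27 (95% interval -0.03 to 0.57; adjusted p = 0.132, edgeR). The test of the difference between the Ras responses did not pass (0.20 ± 0.16, interval -0.21 to 0.62; adjusted p = 0.389, edgeR).

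The rise of Cyr61 with the knockdown under Dox-4OHT passed in all 15 alternatives (highest adjusted p = 0.0212), whereas its other calls depended on single libraries. The effect of the knockdown under DMSO was lost without NS DMSO replicate 1 or 2 (adjusted p = 0.0827 and 0.0535). The Ras response in knockdown cells was lost without NS DMSO replicate 1 or 2 (0.0638 and 0.0637) or knockdown Ras replicate 1 or 2 (0.1 and 0.105), with log2 changes between 0.37 and 0.59 over all alternatives. The Ras response in NS cells passed without NS Ras replicate 1 (0.39; adjusted p = 0.00891). It also passed without knockdown DMSO replicate 1 or 2 (0.0333 and 0.033), and in a fit of the 4 libraries compared alone (0.036).

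Ctgf, also a secreted matricellular protein and a target of SMADs, was at 60.0 and 63.9 CPM in knockdown Ras cells, 62.8 and 61.6 CPM in NS Ras cells, 74.2 and 73.1 CPM in knockdown DMSO cells, and 55.0 and 57.9 CPM in NS DMSO cells. The Ras groups overlapped, knockdown DMSO cells lay above them and NS DMSO cells below. Ctgf rose 1.31-fold with the knockdown under DMSO (log2 0.38 ± 0.05; adjusted p = 9.17e-07, edgeR). It fell 1.19-fold with Ras in knockdown cells (-0.25 ± 0.05; adjusted p = 0.000643, edgeR), and the Ras responses differed by -0.39 ± 0.08 (knockdown minus NS cells; adjusted p = 0.00026, edgeR). The knockdown effect under Dox-4OHT was -0.01 (95% interval -0.12 to 0.11). The rise with Ras in NS cells was small and close to the threshold (0.14 ± 0.06; adjusted p = 0.0482, edgeR), and 9 of 15 alternatives ended that call. Among these were DESeq2 (0.247), the loss of NS DMSO replicate 1 or 2 (0.316 and 0.0548) and of NS Ras replicate 1 or 2 (0.17 and 0.0913).

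The 2 abundant targets therefore did not keep a fixed ratio. Cyr61 was 5.73 and 5.45 times Ctgf in TPM in knockdown Ras cells, 3.06 and 3.71 times in NS Ras cells, 3.11 and 3.67 times in knockdown DMSO cells, and 3.08 and 3.10 times in NS DMSO cells. Knockdown Ras cells stood apart, NS Ras cells overlapped both DMSO groups, and the DMSO groups lay next to each other without overlap. Over the 8 libraries the correlation of their log2 CPM was 0.351 (Pearson, given as a description, with 4 groups of 2 libraries behind it).

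Ankrd1, a nuclear ankyrin-repeat protein and a widely used YAP reporter gene, was near the limit of detection. It had 12.5 and 5 counts in knockdown Ras cells, 6 and 8 in NS Ras cells, 5 and 7 in knockdown DMSO cells, and 1 and 3.5 in NS DMSO cells. NS DMSO cells had the fewest counts, and the other 3 groups overlapped. The ratio of summed, rounded counts corrected for depth was 1.42 for Ras in knockdown cells (95% counting interval 0.647 to 3.23) and 4.04 for Ras in NS cells (1.27 to 16.8). For the knockdown it was 1.18 under Dox-4OHT (0.556 to 2.57) and 3.37 under DMSO (1.02 to 14.3). The NS DMSO sum of 4.5 counts entered as 4, which raised both ratios against NS DMSO cells, and the bound of 1.02 lies next to 1. The knockdown Ras sum of 17.5 entered as 18, which raised the ratios of 1.42 and 1.18. These intervals cover counting error of these libraries only. In a fit of all genes without the filter, adjusted p were between 0.12 and 0.86 (edgeR), so that no change passed the test at this depth.

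Per length, Cyr61, Ajuba and Yap1 were the most abundant members in each group, and Lats2 and Ankrd1 the least. In knockdown Ras cells Cyr61 led with a mean of 392 TPM, ahead of Ajuba (268 TPM) and Yap1 (224 TPM). In NS Ras cells Ajuba had 267 TPM and Cyr61 242 TPM. In knockdown DMSO cells Ajuba had 328 TPM and Cyr61 286 TPM. In NS DMSO cells Ajuba led with 332 TPM, followed by Cyr61 with 195 TPM, Yap1 with 181 TPM and Amotl2 with 174 TPM. Lats2 stayed between 11.7 and 14.0 TPM and Ankrd1 between 0.237 and 0.930 TPM in the means of all groups.

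The wider pathway was described with 4 gene lists. Of 14 genes of the Hippo kinase core, all tested, Ras raised 4 and lowered 3 in knockdown cells, and raised 5 and lowered 1 in NS cells. These 7 and 6 of 14 stand beside 36.1% and 42.1% of all genes called. The median log2 change was -0.02 in knockdown cells and 0.06 in NS cells. Map4k4, a kinase upstream of LATS, rose in knockdown cells (0.27 ± 0.03; adjusted p = 6.57e-07, edgeR) and in NS cells (0.34 ± 0.03; adjusted p = 5.26e-09, edgeR). Mob1a, a LATS cofactor, fell in knockdown cells (-0.27 ± 0.04; adjusted p = 1.87e-05, edgeR). Nf2, the membrane scaffold Merlin, rose in NS cells (0.33 ± 0.05; adjusted p = 4.17e-06, edgeR), and its Ras responses differed by -0.41 ± 0.06 (adjusted p = 3.05e-05, edgeR).

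With the knockdown, 4 genes of the kinase core rose and 3 fell under Dox-4OHT, and 5 rose and 2 fell under DMSO, with medians of -0.05 and 0.04. The 7 of 14 called in each lay below the 60.2% and 61.9% of all genes. Stk3, which encodes the kinase MST2, was at 41.0 and 40.6 CPM in knockdown Ras cells, against 69.4 and 66.6 CPM in NS Ras cells. It was at 36.2 and 34.4 CPM in knockdown DMSO cells, against 60.9 and 56.3 CPM in NS DMSO cells. It fell under Dox-4OHT (log2 -0.74 ± 0.06; adjusted p = 4.77e-11, edgeR) and under DMSO (-0.73 ± 0.06; adjusted p = 1.02e-10, edgeR). Sav1, the scaffold of the MST kinases, rose under Dox-4OHT (0.40 ± 0.05; adjusted p = 2.29e-08, edgeR) and under DMSO (0.33 ± 0.05; adjusted p = 8.24e-07, edgeR). Mob1b, a LATS cofactor, rose under Dox-4OHT (0.14 ± 0.06; adjusted p = 0.0485, edgeR), a call that 11 of 15 alternatives ended, among them DESeq2 (0.151) and the loss of any library but NS Ras replicate 1 (log2 0.03 without NS Ras replicate 2). It rose under DMSO by 0.44 ± 0.06 (adjusted p = 4.56e-07, edgeR). For the difference between Ras responses 1 gene of the core was positive and 4 were negative, 5 of 14 where 38.2% of all genes were called. The positive one was Taok3, a kinase upstream of MST (0.54 ± 0.13; adjusted p = 0.00123, edgeR).

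**Figure D4:**
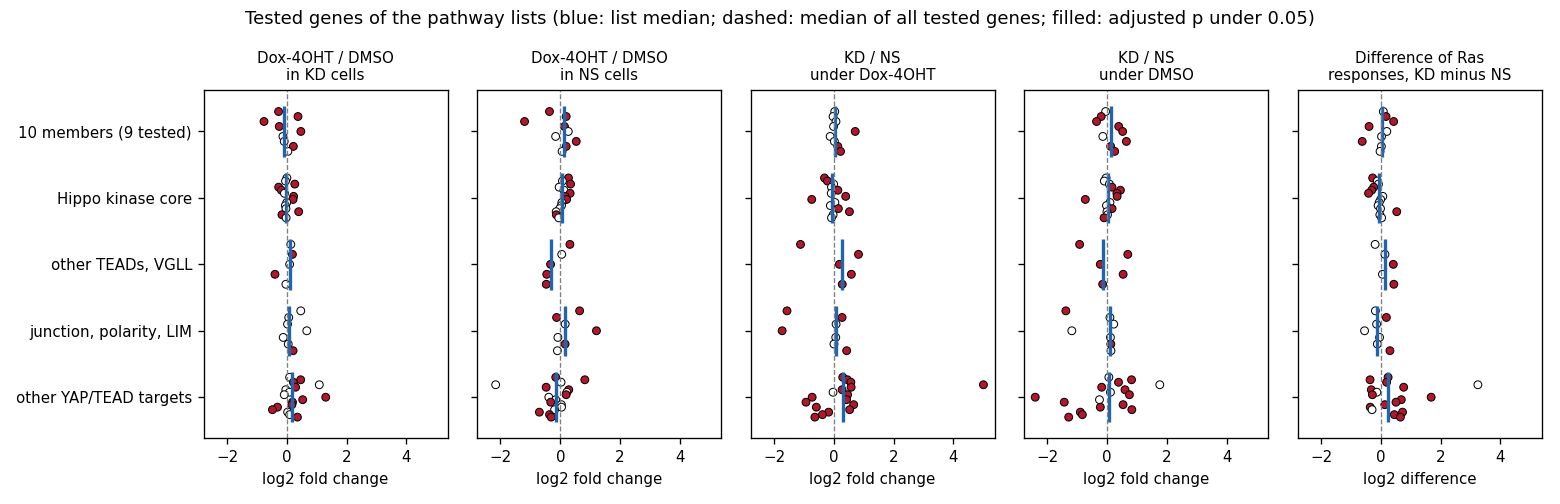
Log2 change of each tested gene of the members and the 4 lists in the 5 comparisons, with 1 point per gene, filled where the adjusted p was under 0.05 (edgeR); blue lines are list medians and dashed lines the median of all 12538 genes tested. Among the 17 other published targets more genes were higher than lower with Ras in knockdown cells (8 against 2), and fewer in NS cells (3 against 6).

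Of the 7 other TEAD and VGLL genes, 5 were tested. Ras raised 1 and lowered 1 in knockdown cells and raised 1 and lowered 3 in NS cells. The knockdown raised 4 and lowered 1 under Dox-4OHT and raised 2 and lowered 3 under DMSO, the TEAD values being those above. With 36.1% and 42.1% of all genes called for Ras in knockdown and NS cells, and 60.2% and 61.9% for the knockdown, these counts rest on only 5 genes. The medians were 0.10 and -0.32 with Ras in knockdown and NS cells, and 0.28 and -0.15 with the knockdown under Dox-4OHT and DMSO. The gene raised by Ras in knockdown cells was Tead3 (log2 0.19 ± 0.05; adjusted p = 0.00733, edgeR), which was lost by DESeq2 (0.087) and without knockdown Ras replicate 1 (0.189). Vgll3, a TEAD cofactor, fell with Ras in knockdown cells (log2 -0.40 ± 0.05; adjusted p = 1.87e-07, edgeR) and in NS cells (-0.45 ± 0.05; adjusted p = 7.05e-08, edgeR). Vgll4, which competes with YAP for TEAD, was at 119 and 113 CPM in knockdown Ras cells, 96.5 and 94.8 CPM in NS Ras cells, 119.7 and 118 CPM in knockdown DMSO cells, and 128 and 136 CPM in NS DMSO cells. It fell with Ras in NS cells (-0.47 ± 0.05; adjusted p = 2.93e-09, edgeR). The Ras responses differed by 0.44 ± 0.06 for Vgll4 (adjusted p = 4.41e-06, edgeR) and by 0.42 ± 0.08 for Tead4 (adjusted p = 0.000147, edgeR).

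Of the 8 junction, polarity and LIM regulators, 7 were tested. Ras raised 1 in knockdown cells, and raised 3 and lowered 1 in NS cells. The knockdown raised 2 and lowered 2 under Dox-4OHT, and raised 1 and lowered 1 under DMSO. Over all genes the shares called were 36.1%, 42.1%, 60.2% and 61.9% in that order, so 1 of 7 with Ras in knockdown cells and 2 of 7 with the knockdown under DMSO lay below them. The medians were 0.07 and 0.16 with Ras in knockdown and NS cells, and 0.07 and 0.11 with the knockdown under Dox-4OHT and DMSO. Wtip, a LIM protein related to Ajuba, rose with Ras in knockdown cells (log2 0.21 ± 0.06; adjusted p = 0.00323, edgeR; 0.0526 by DESeq2) and with the knockdown under Dox-4OHT (0.43 ± 0.06; adjusted p = 2.19e-07, edgeR). Its Ras responses differed by 0.31 ± 0.08 (adjusted p = 0.00318, edgeR). Amot rose with Ras in NS cells (0.65 ± 0.14; adjusted p = 0.000729, edgeR), as did Scrib, a polarity scaffold (0.16 ± 0.04; adjusted p = 0.000648, edgeR). Scrib also rose with the knockdown under DMSO (0.12 ± 0.04; adjusted p = 0.00551, edgeR; 0.0923 without NS DMSO replicate 1).

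The 17 other published YAP and TEAD targets, all tested, did not move one way either. Ras raised 8 and lowered 2 in knockdown cells (median log2 change 0.17) and raised 3 and lowered 6 in NS cells (-0.16). The knockdown raised 10 and lowered 6 under Dox-4OHT (0.30) and raised 6 and lowered 7 under DMSO (0.05). The genes called numbered 10 and 9 of 17 for Ras, where 36.1% and 42.1% of all genes were called, and 16 and 13 of 17 for the knockdown, where 60.2% and 61.9% were. The Ras responses differed for 14 of the 17, 10 positive and 4 negative (median 0.25, against 0.02 over all genes), where 38.2% of all genes were called.

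Crim1, a transmembrane protein that binds BMPs, was at 344 and 349 CPM in knockdown Ras cells, 236 and 227 CPM in NS Ras cells, 286 and 278 CPM in knockdown DMSO cells, and 329 and 312 CPM in NS DMSO cells. Crim1 rose with Ras in knockdown cells (log2 0.30 ± 0.04; adjusted p = 2.44e-07, edgeR) and fell with Ras in NS cells (-0.47 ± 0.04; adjusted p = 3.23e-11, edgeR), and the responses differed by 0.77 ± 0.05 (adjusted p = 5.98e-12, edgeR). With the knockdown it rose under Dox-4OHT (0.58 ± 0.04; adjusted p = 1.54e-13, edgeR) and fell under DMSO (-0.19 ± 0.04; adjusted p = 7.11e-05, edgeR). Ptpn14, a phosphatase that binds YAP, was at 373 and 396 CPM in knockdown Ras cells, 449 and 417 CPM in NS Ras cells, 369 and 384 CPM in knockdown DMSO cells, and 703 and 702 CPM in NS DMSO cells. Like Tead1, Ptpn14 had an NS DMSO group that stood apart, here above the other 3 groups. Ptpn14 fell with Ras in NS cells (-0.70 ± 0.04; adjusted p = 4.02e-14, edgeR) and with the knockdown under DMSO (-0.90 ± 0.04; adjusted p = 7.36e-17, edgeR), and its Ras responses differed by 0.73 ± 0.05 (adjusted p = 6.36e-11, edgeR).

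Asap1, an Arf GTPase-activating protein, was at 286 and 293 CPM in knockdown Ras cells, 211 CPM in each library of NS Ras cells, 209 and 210.5 CPM in knockdown DMSO cells, and 120.3 and 118 CPM in NS DMSO cells. It rose with Ras in knockdown cells (log2 0.47 ± 0.04; adjusted p = 6.8e-11, edgeR) and in NS cells (0.82 ± 0.04; adjusted p = 7.73e-16, edgeR). Igfbp3, a secreted protein that binds insulin-like growth factors, was at 535 and 517 CPM in knockdown Ras cells, against 997 and 1006 CPM in NS Ras cells, and at 474 and 447 CPM in knockdown DMSO cells, against 1272 and 1225 CPM in NS DMSO cells. Igfbp3 is also known as a gene induced by TGF-beta. It fell with the knockdown under Dox-4OHT (-0.93 ± 0.03; adjusted p = 6.68e-19, edgeR) and under DMSO (-1.44 ± 0.03; adjusted p = 4.02e-23, edgeR). Myof, a membrane repair protein, was at 579 and 626 CPM in knockdown Ras cells, against 379 and 380.2 CPM in NS Ras cells, and rose (0.67 ± 0.04; adjusted p = 6.77e-15, edgeR).

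The genes most like 3 of the members were searched among 9895 tested genes with a mean of at least 5 CPM, by the Pearson correlation of log2 CPM over the 8 libraries. Those most like Ctgf were Tcp1 (0.987), Espl1 (0.982) and Acsl5 (0.980). Those most like Cyr61 were Numb (0.988), Procr (0.986) and Tnfrsf12a (0.986). Those most like Amotl2 were Txndc17 (0.989), Barx2 (0.984) and Vps33a (0.983). Among the members, Amotl2 and Ajuba were the most alike (0.978), and Lats2 and Wwtr1 were the most opposed (-0.911). With 4 groups of 2 libraries, which share their treatments, such values describe the order of 4 group means and little else.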

How the data were processed

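Libraries were made with the TruSeq RNA kit from total RNA of adherent ASZ001 cells, per the labels' protocols. For the 8 libraries the authors deposited estimated counts per gene, not normalized, in 1 table made with TopHat and HOMER on the mouse build mm9, per the submitters' processing notes, which also name DESeq2. The table also gives a length per gene, an other value deposited by the authors. Not given in the sources used here are versions, the strand setting and how reads matching several genes were counted, so reads of paralogs or overlapping genes may be divided or shared. All deposited values were multiples of 0.5 (70.9% whole). The tests had been designed for whole counts, so values were rounded first.

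Of 24909 entries, 2 repeated a symbol and were dropped. With edgeR 4.0.16 in R 4.3.3, filterByExpr kept 12538 genes (99.96% of counts) and left out 12369. After scaling by the trimmed mean of M-values (TMM), 1 quasi-likelihood model with a mean per group was fitted to all 8 libraries (robust, 4 residual degrees of freedom, biological coefficient of variation 3.37%). The 5 contrasts were tested two-sided, and p-values were adjusted by Benjamini-Hochberg over all of these genes. TPM were computed here from the counts and deposited lengths. The fit was also run on simulated data with 1 common spread for all genes. Such data cannot show how the fit does for genes of unequal spread. Summed over the tested genes above a minimum count in the group, its 2 libraries differed by more than sampling noise (chi-square per degree of freedom 2.35 to 13.3). The sum includes Rn45s, which took 0.916% and 2.76% of counts in NS Ras cells, the group with the highest value. Its shares were 0.388% and 1.36% in knockdown DMSO cells (chi-square value 8.29). They were 2.49% and 2.57% in knockdown Ras cells (2.68), and 0.816% and 0.549% in NS DMSO cells (2.35). The value without Rn45s was not computed. Intervals for Ankrd1 are exact binomial and cover counting error only.

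The members and lists were chosen with earlier results of these data known. Named are all members, Tgfbr1, up to 2 called genes of each list with the smallest p per comparison, and the 3 genes most like Ctgf, Cyr61 and Amotl2 (log2 CPM, prior count 2). Genes of the TEAD and angiomotin families outside a comparison's named genes were given so that each family is whole. Further calls of Crim1, Sav1, Mob1b, Trp63, Itga6 and genes with differing Ras responses were added after their values were seen. Alternatives were DESeq2 1.42.0, DESeq2 size factors, upper-quartile factors, no filter, the replicate number as a block, a fit of only the libraries compared, removal of Rn45s and removal of each library.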

Additional observations from a re-analysis of the deposited data

Results flagged for a closer look

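The Ras response differed between knockdown and NS cells for 17 of the members and pathway genes named by the rule, by edgeR's interaction test over the 8 libraries (log2 change, knockdown minus NS cells, adjusted p under the threshold). The pathway genes were named for the smallest p in a comparison, this one included, so 17 is not a share of the pathway. Among the members the difference was 0.43 for Amotl2, 0.18 for Amotl1, -0.39 for Ctgf and -0.62 for Tead1. Ctgf fell with Ras in knockdown cells while its log2 change in NS cells was 0.14, and Tead1 rose in NS cells while its log2 change in knockdown cells was -0.09.

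Among the other pathway genes the difference was 0.77 for Crim1, 0.73 for Ptpn14, 0.54 for Taok3, 0.51 for Igfbp3, 0.44 for Vgll4, 0.42 for Tead4, 0.31 for Wtip, 0.19 for Dlg5 and 0.14 for Myof. It was -0.41 for Nf2, -0.36 for Asap1, -0.30 for Mob1b and -0.23 for Mob1a. The value for Dlg5, a junction scaffold, passed narrowly (adjusted p = 0.029) and was lost by DESeq2 (0.162) and without any of 6 of the 8 libraries. The value for Myof was lost under 8 of 14 alternatives (adjusted p up to 0.291), that for Mob1b by DESeq2 (0.0540) and without NS Ras replicate 1 (0.0641), and that for Mob1a by DESeq2 (0.0637). Of all genes tested, 38.2% passed this test. Over whole lists it passed for 4 of 9 members, 5 of 14 genes of the kinase core and 2 of 5 other TEAD and VGLL genes. It passed for 2 of 7 junction regulators and 14 of 17 other targets.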

How the results depend on the processing

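Of 79 called results for single genes, 64 passed in the same direction under every alternative and 0 turned; of 19 that were not called, 4 passed under some alternative. Directions turned for values close to 0 that were not called. Ctgf with the knockdown under Dox-4OHT was 0.0045 by DESeq2 and 0.0034 with its size factors in edgeR, and Tead1 in the same comparison was -0.0083 with upper-quartile factors. Leaving out 1 library gave, for the knockdown under Dox-4OHT, -0.0022 to 0.066 for Ajuba, -0.072 to 0.024 for Amotl1, -0.0055 to 0.15 for Amotl2, -0.050 to 0.040 for Ctgf and -0.068 to 0.11 for Tead1. It gave -0.17 to 0.0028 for Tead1 with Ras in knockdown cells, and for the interaction -0.026 to 0.067 for Lats2 and -0.026 to 0.062 for Wwtr1.

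DESeq2 called 2628 genes for Ras in knockdown cells, 3265 for Ras in NS cells and 2828 for the interaction, against 4531, 5281 and 4791. In the same order it called 4, 3 and 2 genes of the kinase core and 0, 2 and 1 of the junction regulators, 1 other TEAD or VGLL gene for Ras in knockdown cells, and 9 other targets for the interaction. The cause was not tested. For the junction regulators, Ras in knockdown cells gave 2 with upper-quartile factors and 2 without Rn45s. The knockdown under DMSO gave 5 without the filter. More genes are tested there in total, but the same 7 of this list, as Dchs1 had 0 counts in every library.

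Without 1 library, the genes called numbered 3324 to 4711 for Ras in knockdown cells, 3855 to 5314 for Ras in NS cells, 6572 to 7570 for the knockdown under Dox-4OHT, 6624 to 7852 under DMSO and 3916 to 4548 for the interaction. In that order the members called numbered 5 to 6, 5 to 7, 3 to 3, 5 to 7 and 3 to 4, and junction regulators 1 to 2, 2 to 4, 3 to 4, 1 to 3 and 1 to 2. The kinase core had 3 to 7 for Ras in NS cells and the other TEAD and VGLL genes 1 to 3 for Ras in knockdown cells.

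Over all tested genes, libraries with the same replicate number did not deviate together (correlations -0.0227 to 0.0327 between groups). This does not settle single genes. Cyr61, Amotl2 and Lats2 were higher in replicate 2 than in replicate 1 in all 4 groups, and Yap1 was lower. The other members did not keep the same direction in all 4 groups. The share of all genes that did was not computed, so there is no background for these members. Whether the number marks a shared batch was not tested. With the replicate number as a block, Cyr61 passed for Ras in NS cells (0.26, adjusted p = 0.000234, edgeR) and for the interaction (0.21, adjusted p = 0.0174, edgeR), and members called were 7 and 5 there. The other members kept their calls under the block. Ankrd1 had few counts, and in the fit of all genes without the filter none of its changes passed the test.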
